A study of Mus musculus with 4 samples.

Results

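The genes of fibroblast growth factor (FGF) signalling were examined in thymic epithelial cells (TECs) of mice with an induced deletion of the homeobox gene Meis1. The set comprised every array gene named Fgf or Fgfr with a number, together with Fgfrl1, Klb, Fgfbp1, Fgfbp3, Frs2, Frs3, Spry1 to Spry4, Spred1, Spred2, Etv4 and Etv5. This rule uses names and no measured value, and it gave 39 genes with 72 of the 41174 probes of the array. Of these genes, 23 could be tested, among 16764 features in all. No member passed the test, limma with adjustment over all features, which called none of the 16764 (0.0%). An unadjusted p under 0.05 was given by limma for 466 (2.78%), no more than such a threshold passes where nothing differs. Of the 2 probes of Fgf12, the tested one gave a signal above background in both control pools and in neither Meis1-deleted pool. The other was not above background on any array.

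Both groups carried K14-CreERT2, a Cre recombinase driven by the keratin 14 promoter and switched on by tamoxifen. The deleted group (Meis1-CKO) had both Meis1 alleles floxed (Meis1 fl/fl). The control group had 1 floxed and 1 normal allele (Meis1 fl/+), although its labels also call it WT, so the controls received Cre and tamoxifen and could lose an allele as well. All mice were 3 weeks old and were injected with tamoxifen (1 mg a day for 3 days), and sorting of CD45- EpCAM+ cells followed 4 days after that, after magnetic removal of CD45 and Ter119 bearing cells. Each group had 2 pools of 6 mice from independent experiments, and each pool was measured on 1 single-colour Agilent array from 10 ng of amplified RNA. Control 1 and Meis1-CKO 1 shared slide 1, and control 2 and Meis1-CKO 2 shared slide 2. Keratin 14 marks chiefly medullary TECs, and the labels do not give the share of sorted cells that recombined. The question put to these genes is whether the ligands, the receptors or the responses of the FGF pathway differed after loss of Meis1.

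FGFs bind receptor tyrosine kinases, encoded by Fgfr1 to Fgfr4, together with heparan sulfate, and the docking protein Frs2 passes the signal to the Ras and MAP kinase cascade. Active signalling induces its own brakes, the Sprouty (Spry) and Spred proteins, and the ETS transcription factors Etv4 and Etv5. In the thymus, Fgf7 (keratinocyte growth factor) and Fgf10 are known as products of the mesenchyme that act on the IIIb form of Fgfr2 on epithelial cells and support their growth. Fgf15, Fgf21 and Fgf23 circulate as hormones that need a Klotho co-receptor such as Klb, whereas Fgf11 to Fgf14 stay within the cell and bind voltage-gated sodium channels. Medullary TECs are also known to transcribe many genes of other tissues at low levels.

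Each probe is a 60-base oligonucleotide. The sequences of 6 of them, copied from the array files and written 5′ to 3′ with mm9 positions, show what was measured. The Fgf12 probe is the one tested for that gene. The Fgf21 probe shown is the dimmer of 2, set beside the tested one below. The mm9 span of both exceeds 60 bases, so that each crosses at least 1 exon junction. The Fgf7 probe, which was not tested, and 1 of the dimmer Fgfr2 probes stand for the ligand and the receptor best known in this tissue.
Fgf12, chr16:28189673-28373012, minus strand: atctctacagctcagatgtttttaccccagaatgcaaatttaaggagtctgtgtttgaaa
Fgf21, chr7:52869680-52870294, minus strand: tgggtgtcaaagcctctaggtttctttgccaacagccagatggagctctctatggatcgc
Fgf7, chr2:125915147-125915206, plus strand: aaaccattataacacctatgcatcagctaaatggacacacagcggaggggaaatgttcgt
Fgfr2, chr7:137385966-137386025, minus strand: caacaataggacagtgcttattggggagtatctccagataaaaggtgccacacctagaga

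A pair of Fgfr1 probes is shown because they overlap and their values can be set beside each other. They share 39 bases with 1 substitution, A57G, counted from 1 at the 5′ end of the first probe (position 36 of the second), and the capital letter marks it.
Fgfr1, first probe, chr8:26684042-26684101, plus strand: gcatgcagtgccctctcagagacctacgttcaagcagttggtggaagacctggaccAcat
Fgfr1, second probe, chr8:26684063-26684122, plus strand: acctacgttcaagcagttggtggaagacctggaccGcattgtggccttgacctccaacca

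All levels below are log2 signals relative to the 75th percentile of the array, listed in the order control 1, control 2, Meis1-CKO 1 and Meis1-CKO 2, and a difference is Meis1-CKO minus control. The share of spots well above background ran from 58.6% to 63.6%. All 12 TEC markers, among them Epcam, Krt5, Foxn1 and Aire, were above background on all 4 arrays. All of them but Ly75 and Cldn4 read lowest on Meis1-CKO 2. Psmb11 (3.13, 2.14, 2.53 and -1.19), Prss16 (2.90, 2.58, 2.86 and 0.02) and Foxn1 (1.02, 1.21, 0.85 and -0.69) fell most there. Meis1-CKO 2 stood apart, with correlations across features of 0.857 to 0.885 with the other arrays, against 0.936 to 0.943 among those. The summed linear signal of 10 myeloid and dendritic markers was 11.0 to 13.0 on the other arrays and 73.9 on Meis1-CKO 2. Ptprc, which encodes the leukocyte protein CD45, gave the largest part there (log2 5.56, against -0.75 to 1.44 on the others). The median of these 10 markers was 0.85 on Meis1-CKO 2 and -1.47 to -1.21 on the others. The sum of 10 thymocyte markers ranged from 6.10 to 49.0, and that of the TEC markers from 185 on Meis1-CKO 2 to 445 on control 1. Whether these other cells contributed to the differences below was not tested. In sorted bulk RNA, fewer cells of a type and less RNA per cell cannot be told apart. Meis1 itself had 2 probes. The first (chr11:18911247-18911306, minus strand) read -0.12, -0.91, -0.44 and -2.08, a difference of -0.75 (SE 0.69, n = 2 pools each, limma adjusted p = 1). The second (chr11:18781206-18781265, minus strand) was detected in the control pools alone and was at least 1.46-fold lower in the deleted pools. The labels do not say which exons were floxed, so neither probe checks them.

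Receptors, adaptors and feedback genes were measured far more fully than the extracellular ligands. At least 1 probe was well above background on all 4 arrays for 19 of the 39 genes. All probes of Fgf5 (1 probe), Fgf21 (2), Fgf14 (3), Fgfbp1 (1), Fgfbp3 (2), Fgfr2 (3), Frs2 (3), Frs3 (1) and Spry1 (1) were so, as was 1 probe each of Fgf1 (of 2), Fgf8 (of 2), Fgf11 (of 2), Fgfr1 (of 4), Fgfr4 (of 3), Spred2 (of 2) and Spry2 (of 2), and 2 of 3 probes of Fgf13, Fgfr3 and Spred1. A further 3 genes had a probe above background on 3 arrays, namely Etv4 (its only probe, not on control 1), Fgf9 (1 of 2 probes) and Fgf15 (its only probe), the latter both missing on Meis1-CKO 2. Of the 6 genes measured on 2 arrays, Fgf7 and Fgf10 (1 probe each) and 1 of 2 probes of Fgf2 and of Fgf6 were above background on control 2 and Meis1-CKO 1, Fgfrl1 (1 probe) on both arrays of slide 1, and Fgf12 (1 of 2 probes) on both controls.

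Single arrays alone showed Etv5 (1 of 2 probes, control 1), Fgf18 (1 probe, control 2) and Fgf20 (1 probe, Meis1-CKO 2). The remaining 8 genes were not well above background on any array: Fgf3, Fgf16 and Fgf17 (1 probe each), Fgf22 and Fgf23 (2 each), the co-receptor Klb (2), Spry3 (1) and Spry4 (2). By role, 4 of 14 paracrine ligands, 2 of 3 endocrine ligands, 4 of 4 intracellular factors, both binding proteins, 4 of 6 receptors and co-receptors, both adaptors and 5 of 8 feedback or target genes met the condition for testing, a probe well above background in both pools of either genotype. The number of genes with a probe above background was 24, 28, 27 and 21. It was lowest on Meis1-CKO 2. Fgf12 met the condition for testing through the control group alone, where it is high, and neither Meis1-CKO pool was above background. Fgf9 and Fgf15 likewise met it through the controls alone, and Etv4 through the deleted group alone. Such entry favours a higher value in that group without forcing it, since the fitted differences of Fgf15 and Etv4 were 0.17 and 0.04.

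**Figure D1:**
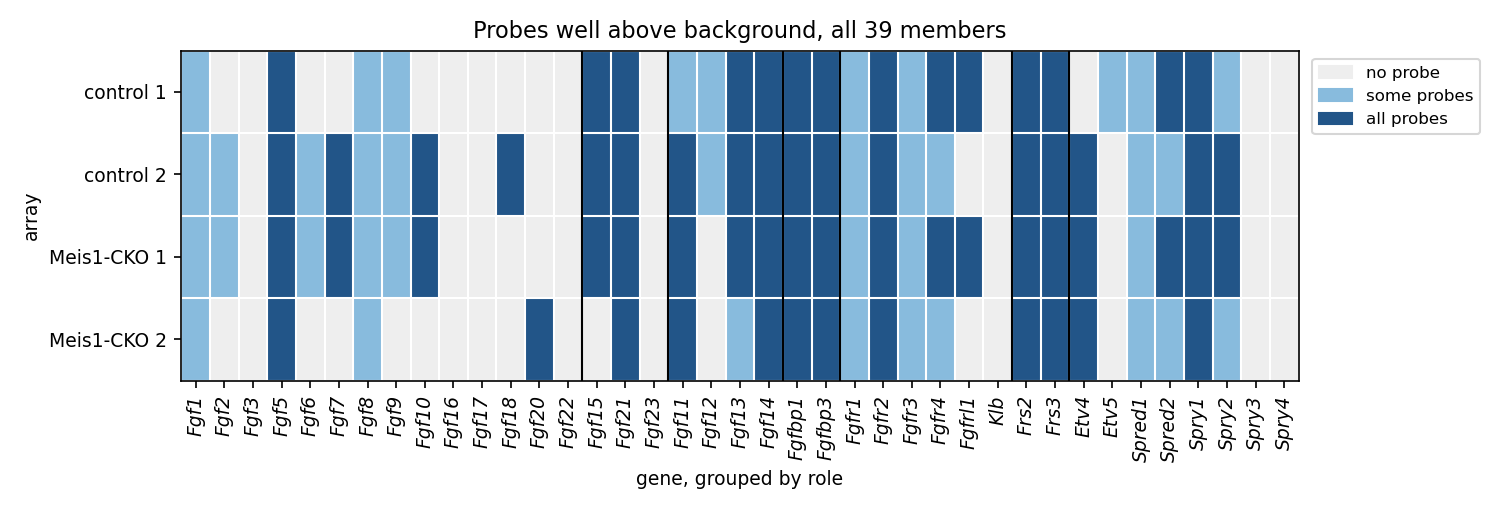
Probes well above background for all 39 genes (columns, grouped by role between black lines in the order paracrine ligands, endocrine ligands, intracellular factors, binding proteins, receptors and co-receptor, adaptors, feedback and target genes) on each of the 4 arrays (rows). Dark blue marks genes with all probes above background, light blue some and grey none. Fgf7 and Fgf10 are blue on control 2 and Meis1-CKO 1 only, Fgfrl1 on both arrays of slide 1, and Fgf12 on both controls.

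Among the paracrine ligands, which act on neighbouring cells, Fgf5 and Fgf1 read lower in both deleted pools than in either control. Fgf5, known as a brake on hair growth, read -1.71, -0.50, -2.92 and -3.02. Both Meis1-CKO pools were thus close together and below either control, although the controls themselves differed by more than 2-fold. For n = 2 pools each the difference was -1.86 (SE 0.56, limma unadjusted p = 0.0174, adjusted p = 1); slide 1 gave -1.21 and slide 2 gave -2.51. Fgf1, a ligand of all FGF receptors, read -0.44, -1.27, -1.51 and -2.26. Here the gap between control 2 and Meis1-CKO 1 was small beside the spread within each group, and the groups did not overlap. The difference was -1.03 (SE 0.54, limma adjusted p = 1); slide 1 gave -1.07 and slide 2 gave -0.98, and it was -0.61 without control 1 and -0.66 without Meis1-CKO 2. The other Fgf1 probe was not above background on any array.

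Fgf9 and Fgf8 gave overlapping groups. Fgf9, an epithelial and mesenchymal growth factor in development, read -3.26, -2.80, -3.22 and -5.93, so that Meis1-CKO 2 alone was low and not above background. On slide 1 the difference was 0.05, and on slide 2 the signal was at least 1.91-fold lower in Meis1-CKO 2. The fitted difference of -1.54 (SE 0.93, limma adjusted p = 1) rests on that undetected value, and it was -0.18 without Meis1-CKO 2. Fgf8, a patterning ligand of the embryonic pharyngeal region from which the thymus arises, read -0.23, -0.16, -0.07 and -0.39. Its 4 values lay close together, and the difference was -0.04 (SE 0.43).

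The mesenchymal ligands of the thymus, Fgf7 and Fgf10, gave the opposite sign on the 2 slides and were not tested. Fgf7 read -3.50, -1.37, -1.61 and -3.47, and it was above background on control 2 and Meis1-CKO 1. With the other array of each slide not above background, the signal was at least 3.59-fold higher in Meis1-CKO 1 than in control 1, and at least 4.29-fold lower in Meis1-CKO 2 than in control 2. Fgf10 read -5.37, -2.80, -3.09 and -5.38, with the same high and low arrays, at least 1.28-fold higher on slide 1 and at least 1.92-fold lower on slide 2. Its probe was printed 10 times on each array, and the spots above background numbered 0 of 9, 9 of 9, 10 of 10 and 0 of 10 after removal of outlier spots. Fgf6, a ligand of skeletal muscle, read -5.67, -1.05, -2.92 and -5.96 at its detected probe, again high on control 2 and Meis1-CKO 1. The detected Fgf2 probe followed with -4.51, -3.19, -3.47 and -5.92, whereas the Fgf2 probe printed 10 times had no spot above background. All 4 of these ligands were thus detected in 1 pool of each genotype.

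Markers of mesenchyme were mixed. Col1a1 and Mfap5, 2 of 10 markers, were highest on control 2 and Meis1-CKO 1 as well (Mfap5 above background on Meis1-CKO 1 alone). This order was not particular to mesenchyme. It was also seen for 4 of 12 TEC markers (Epcam, Krt8, Aire and Cldn4), 1 of 7 endothelial markers (Tie1, not above background) and 1 of 4 erythroid markers (Slc4a1). None of the 10 thymocyte or the 10 myeloid and dendritic markers had it. The mesenchyme markers above background numbered 8, 6, 9 and 6 of 10. Their summed linear signal was 13.4, 7.42, 12.7 and 3.19, so that the summed list was high on control 1 and Meis1-CKO 1. Pdgfra, a receptor that marks thymic fibroblasts, was above background on control 1 and Meis1-CKO 1 only, and Twist1 on no array. The part of mesenchymal cells in the Fgf7 and Fgf10 values was not tested. Fgf18 read -3.53, -3.23, -4.80 and -3.84 and Fgf20 read -3.57, -4.10, -5.08 and -3.29, each above background on a single array.

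**Figure D2:**
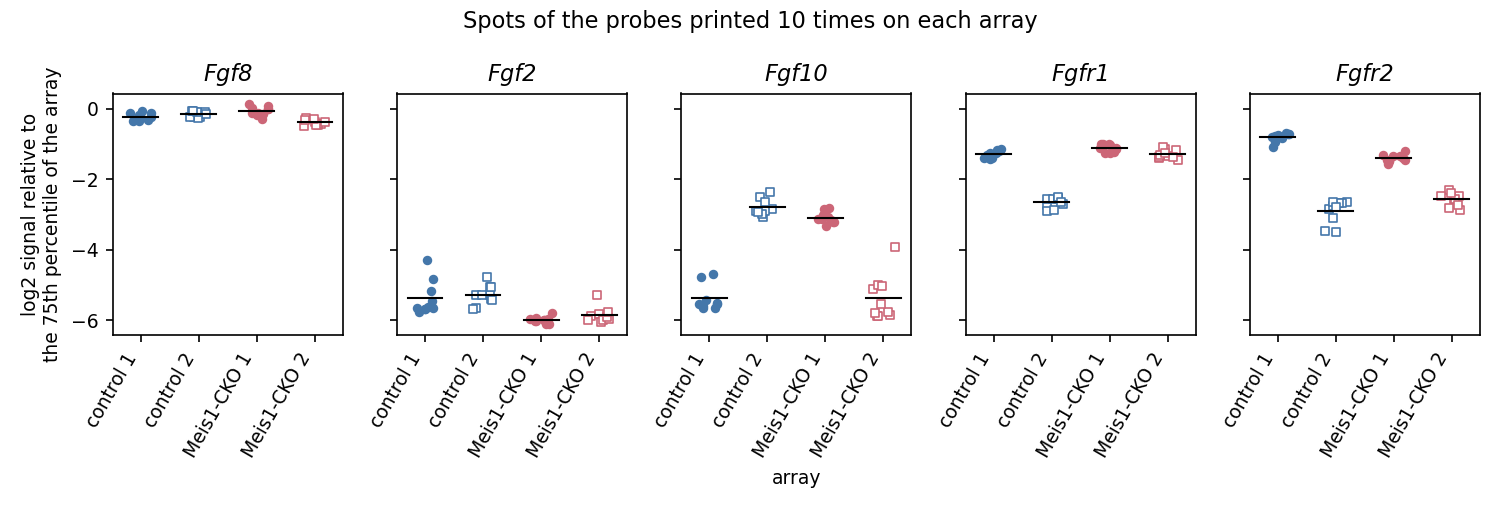
Log2 signal of the single spots of the 5 FGF probes printed 10 times on each array, relative to the 75th percentile of the array (y axis), for the 4 arrays (x axis, blue control, red Meis1-CKO, filled circles slide 1, open squares slide 2). Black lines are means over spots of 1 pool, so the scatter is technical. Fgf10 is high on control 2 and Meis1-CKO 1, Fgfr1 is low on control 2, and Fgfr2 is higher on both arrays of slide 1.

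Of the endocrine ligands, Fgf21 read lower in both Meis1-CKO pools at its brighter probe. This hormone of the fasting liver read 2.58, 4.02, 2.37 and 1.20 (chr7:52869305-52869364). Control 1 and Meis1-CKO 1 were nearly alike, while control 2 was the highest array and Meis1-CKO 2 the lowest. The difference was -1.51 (SE 0.70, limma unadjusted p = 0.0772, adjusted p = 1), where slide 1 contributed -0.21 and slide 2 -2.82. It was -0.93 without Meis1-CKO 2 and -0.79 without control 2. The exon-spanning probe shown above read 0.64, 2.06, 0.70 and -0.93, a difference of -1.46 in which the groups overlapped, since Meis1-CKO 1 lay just above control 1. Aire, which drives tissue-restricted genes in medullary TECs, read 2.50, 4.59, 3.03 and 2.37, and thus shared the high value on control 2; its part in the Fgf21 values was not tested. Fgf15, the intestinal hormone of bile acid control, read -3.07, -2.80, -1.80 and -3.73. Meis1-CKO 1 was its highest array and Meis1-CKO 2 its lowest, and the difference of 0.17 (SE 0.72) comprised 1.26 on slide 1 and -0.92 on slide 2, where Meis1-CKO 2 was not above background.

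Of the intracellular factors, Fgf12 was detected in the controls alone. This gene, which modulates sodium channels in neurons and heart, read -1.73, -2.05, -5.52 and -5.80. The probe was well above background in both controls and in neither Meis1-CKO pool, so that the Meis1-CKO values are those of background and the signal was at least 3.65-fold lower after deletion. Within the slides it was at least 4.15-fold lower on slide 1 and at least 3.21-fold lower on slide 2. The fitted difference was -3.77 (SE 0.44, n = 2 pools each, limma unadjusted p = 0.000216, adjusted p = 0.476). This fit takes the undetected values as measured, and Fgf12 entered it only through the group where it is high, which favours a low p. The adjusted p was 0.337 without Meis1-CKO 2, and without Meis1-CKO 1 it was 0.0332, in a fit that called 314 of 16765 features (1.87%) and 116 (0.692%) as lower. With the slide as a block in limma, the adjusted p was 0.992. With normexp background correction and an offset of 50, which draws dim signals together, the difference was -0.71. The other Fgf12 probe (chr16:28160281-28160340) read -5.62, -5.21, -4.92 and -4.72 and was not above background on any array, so the difference rests on 1 probe with 1 spot per array.

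Fgf13 and Fgf14 read lowest on Meis1-CKO 2, and their groups overlapped. Fgf13, a factor of microtubules and sodium channels in neurons, read 2.32, 0.77, 1.35 and -0.67 at its brightest probe. The controls differed from each other by more than the groups did, and the slides gave -0.97 and -1.44. The difference was -1.21 (SE 0.88, limma unadjusted p = 0.222, adjusted p = 1), or -0.19 without Meis1-CKO 2. With the slide as a block in limma, the SE was 0.43, the unadjusted p 0.0473 and the adjusted p 1. The other Fgf13 probes gave -0.14 and -0.74. Fgf14 read 1.74, 1.27, 2.40 and -0.53, so that the slides pointed in opposite directions, with 0.65 on slide 1 and -1.80 on slide 2. Its other probes repeated this, with 0.29 and -1.54 at the one and 0.73 and -1.04 at the other. Fgf11, the fourth of these factors, differed by 0.06 (SE 0.45).

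The FGF binding proteins, which release ligands from the extracellular matrix, behaved unlike each other. Fgfbp3 read -1.25, -1.15, -0.44 and 0.72, with both Meis1-CKO pools above both controls and the controls within 0.1 of each other. For n = 2 pools each the difference was 1.34 (SE 0.55, limma unadjusted p = 0.0542, adjusted p = 1), made up of 0.81 within slide 1 and 1.86 within slide 2, and it was 0.76 without Meis1-CKO 2. Its second probe read -2.39, -1.83, -0.97 and -0.36, a difference of 1.44 with no overlap of the groups and slide differences of 1.41 and 1.47. Both probes of Fgfbp3 (chr19:36992248-36992307 and chr19:36992662-36992721) were above background on all 4 arrays. Fgfbp1 read -1.31, -1.52, -0.98 and -2.20, and its difference of -0.18 (SE 0.56) had overlapping groups.

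**Figure D3:**
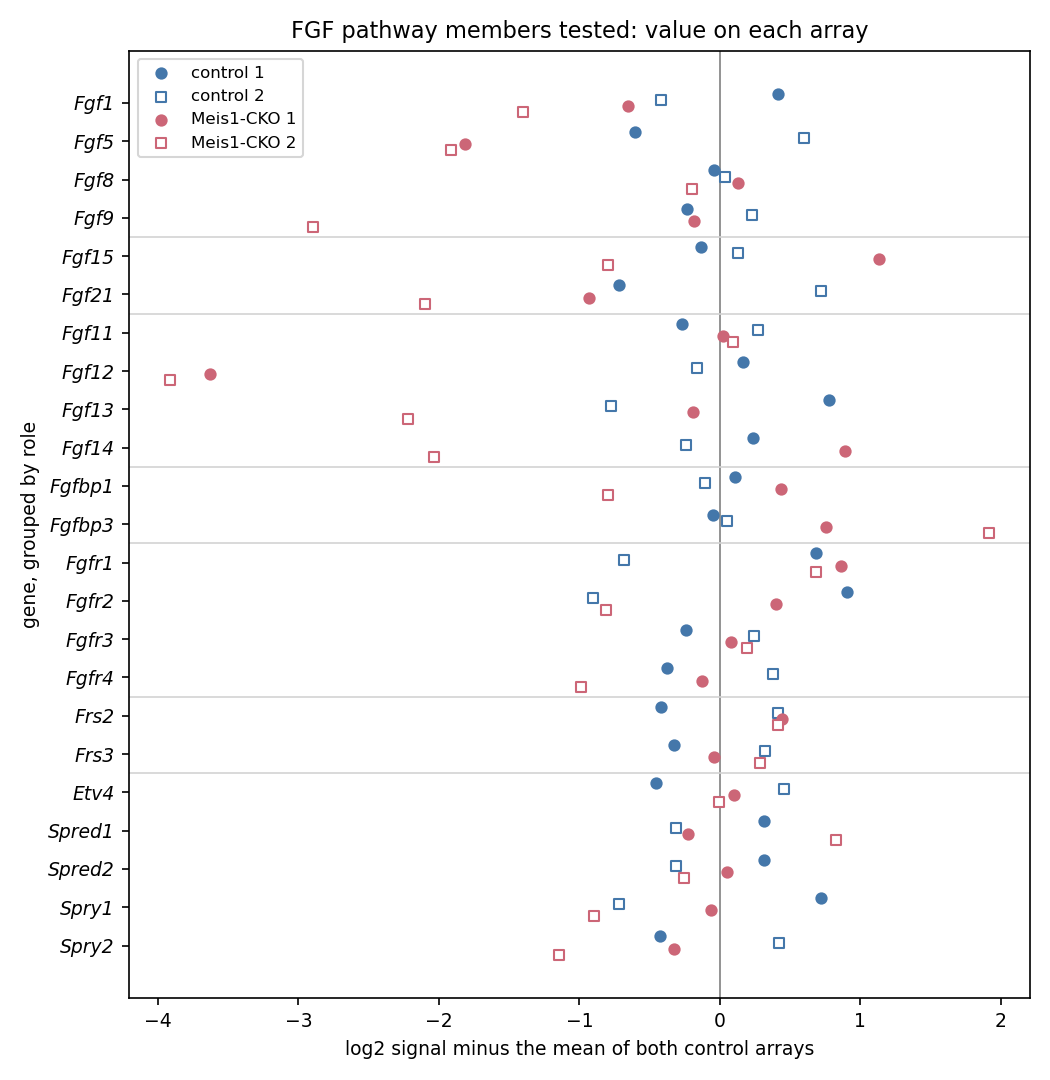
Log2 signal on each array minus the mean of both controls (x axis) for the 23 genes tested (rows, grouped by role). Blue marks control and red Meis1-CKO, filled circles slide 1 and open squares slide 2. Both red symbols lie left of both blue ones for Fgf1, Fgf5, Fgf12 and Fgf21, and right of them for Fgfbp3.

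Receptor signals varied between pools and, at the brightest probe of each gene, overlapped between the genotypes. Fgfr2, the receptor of Fgf7 and Fgf10, read 3.10, 1.29, 2.59 and 1.38 at its brightest probe. Both arrays of slide 1 were high and both of slide 2 low, and the genotypes differed by -0.20 (SE 0.78, limma adjusted p = 1, n = 2 pools each). The probe printed 10 times read -0.82, -2.91, -1.41 and -2.57, with an SD over the spots of an array of 0.11 to 0.33, which covers technical error within an array and not the variation between pools. The probe whose sequence is shown read -0.99, -2.70, -2.16 and -3.10, which placed the arrays of slide 1 on top as well. Which Fgfr2 isoform these probes detect was not determined, and the slide cannot be told apart from the experiment.

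Fgfr1, a receptor known chiefly from mesenchymal cells, read -1.29, -2.66, -1.11 and -1.29 at the first of the overlapping probes. Control 2 alone was low. The SD over the 10 spots of an array was 0.10 to 0.14, again technical error only. The second probe, which differs at A57G, again read lowest on control 2 (-1.40, -3.17, -1.51 and -0.72). It was not above background on control 2, so that its difference rests in part on an undetected value. Their differences were 0.77 (SE 0.59, limma adjusted p = 1) and 1.17, and that of the first was 0.09 without control 2. Since both probes share 39 bases they are not independent. The other pair of Fgfr1 probes was not above background on any array.

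Fgfr3 read -1.92, -1.44, -1.60 and -1.49, a narrow range with a difference of 0.13 (SE 0.45). A neighbouring probe of Fgfr3 gave 0.33, with both Meis1-CKO pools above both controls. Fgfr4 read -2.27, -1.51, -2.01 and -2.88, with Meis1-CKO 2 lowest and a difference of -0.56 (SE 0.55, limma adjusted p = 1). Fgfrl1, a receptor without a kinase domain, read -2.60, -5.18, -2.19 and -3.76. It was above background on both arrays of slide 1 and on neither of slide 2, the order also seen for Fgfr2.

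The adaptors, which pass the signal on, and the feedback genes, which it induces, did not reach a 2-fold difference in any tested case. Frs2, the docking protein, read -0.91, -0.08, -0.06 and -0.08, with control 1 alone low and a difference of 0.43 (SE 0.49, n = 2 pools each, limma adjusted p = 1). Its other probes gave -0.58 and 0.22, so that the sign depended on the probe. The related Frs3 differed by 0.12 (SE 0.48). For every one of the 5 tested feedback or target genes, the controls differed from each other by more than the genotypes did, as was also so for all 4 tested receptors.

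Sprouty proteins restrain receptor tyrosine kinase signalling. Spry1 read -0.10, -1.54, -0.88 and -1.72, with both arrays of slide 1 above both of slide 2 and a difference of -0.48 (SE 0.65). Spry2 read 2.52, 3.37, 2.62 and 1.80, with Meis1-CKO 2 low, and its difference of -0.74 (SE 0.55, limma adjusted p = 1) was 0.10 on slide 1 and -1.57 on slide 2. The dimmer Spry2 probe read -5.71, -2.96, -3.49 and -4.76 and was above background on control 2 and Meis1-CKO 1. Spry4 gave no signal above background at either probe, so its level was not detectable.

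Spred1, which recruits neurofibromin to shut off Ras, read -0.16, -0.78, -0.70 and 0.35, a difference of 0.30 (SE 0.56) with overlapping groups. A dimmer probe of Spred1 gave 0.59, with both Meis1-CKO pools above both controls. Spred2 read 0.99, 0.36, 0.73 and 0.42, a difference of -0.10 (SE 0.47). Of the ETS factors that FGF signalling induces, Etv4 read -3.78, -2.86, -3.22 and -3.33 near the detection limit, a difference of 0.04 (SE 0.51). Etv5 read -2.11, -4.17, -4.33 and -3.99, above background on control 1 alone, and was not tested.

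Over the 23 tested genes, the median log2 difference was -0.18, beside -0.05 over all features, and 9 genes (39.1%) had a positive difference, against 45.3% of all features. Arrays of the groups did not overlap for 5 genes (Fgfbp3 higher, and Fgf1, Fgf5, Fgf12 and Fgf21 lower), where 25.6% of all features had such arrays (11.1% higher and 14.4% lower). The count was therefore near the background, and it was 8 after quantile normalization or with the median of each array as the centre. All 5 genes (21.7% of the 23 tested) also differed at least 2-fold. Of all 16764 features, 7.28% had both arrays apart and a difference of at least 2-fold (3.35% higher and 3.94% lower). The 5 include Fgf12, which entered the test only through the controls, where it is high, so it does not count as support. Under normexp background correction, only Fgf21 of the 5 still differed at least 2-fold (-1.34). A difference of at least 2-fold, with or without overlap, was fitted for 7 genes (30.4%), against 12.2% of features. Among these 7 are Fgf12 and Fgf9, both tested only through the controls. Their fitted values rest on arrays not above background, and for Fgf9 the bound on slide 2 is under 2-fold. Unadjusted p-values under 0.05 were given by limma for 2 genes, Fgf5 and Fgf12, against 2.78% of features, and Fgf12 was tested only through the controls.

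The slides gave different pictures of the set. On slide 1 the median difference was 0.17, with 14 of 23 genes positive, and on slide 2 it was -0.47, with 5 positive, whereas the medians of all features were 0.0015 and -0.12. Only 8 genes (34.8%) had the same sign on both slides, against 46.9% of features. At least 2-fold lower on slide 2 were 8 genes (17.1% of features), on slide 1 there were 3 (5.89%), and on both there were 2, Fgf5 and Fgf12 (1.57%). The 8 include Fgf9, for which only a bound of at least 1.91-fold holds. At least 2-fold higher were 3 genes on slide 2 and 1 on slide 1, and the share of all features was not counted for that direction. Meis1-CKO 2 was the lowest of the 4 arrays for 13 genes (56.5%), against 36.9% of features, and without it the median of the set was 0.019. Without Meis1-CKO 1 it was -0.79, beside -0.08 over all features, and Fgf12, compared with an undetected value, was the 1 gene called, against 1.87% of features. For 16 genes (69.6%) the controls differed from each other by more than the groups did, as for 59.2% of features.

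**Figure D4:**
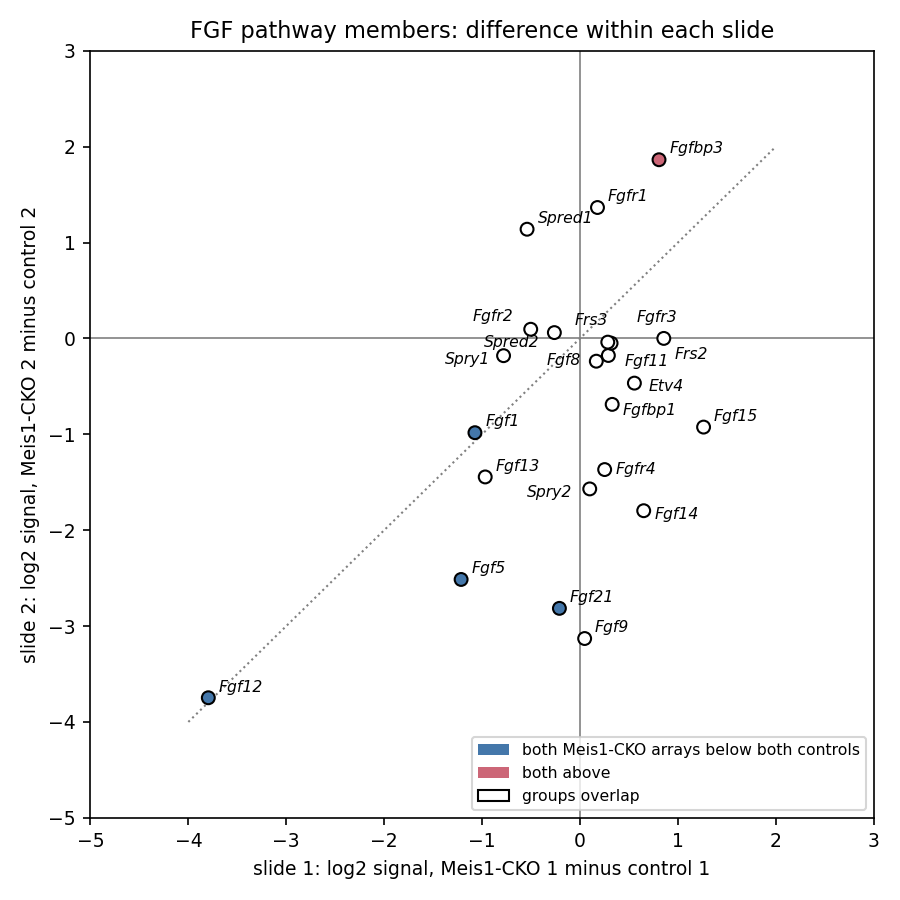
Log2 difference of Meis1-CKO minus control on slide 1 (x axis) and on slide 2 (y axis) for the 23 genes tested. The dotted line marks equal differences, and filled symbols mark genes whose groups do not overlap (blue lower, red higher in Meis1-CKO). Fgf12 lies at -3.80 and -3.75, from Meis1-CKO signals not above background, so that its place is not measured beyond a bound, as is that of Fgf9 on slide 2. Fgf21 is low on slide 2 (-2.82) and near 0 on slide 1 (-0.21).

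Of the genes that act with this set, none passed the test. Of 54 listed genes of downstream signalling, feedback and heparan sulfate synthesis, 50 were tested and none was called (limma, against 0.0% of features), 24 had a positive difference, and the median was -0.01. The groups did not overlap for 8 genes that read higher and 5 that read lower, near the background of 25.6% (11.1% and 14.4%). Unadjusted p-values under 0.05 were given by limma for 2 of them, Shc1 and Cblb, against 2.78% of features. Cblb was tested only through the deleted group, where it is high, which favours a low p and a large fitted difference. A fitted difference of at least 2-fold without overlap was found for 4 genes, against 7.28% of features, and all 4 read higher (3.35%). Cblb, a ubiquitin ligase that ends receptor signalling, read -5.57, -3.97, -3.46 and -1.53. Neither control was above background, so only a bound can be given, at least 1.92-fold higher for the mean of the deleted pools. That bound rests on Meis1-CKO 2, since Meis1-CKO 1 lay no higher than the lowest detected signal of control 1 (-3.45). The adaptor Shc1 read 0.37, 0.49, 1.39 and 1.67. Both Shc1 pools of the deleted group lay well above both controls, with a difference of 1.10 (SE 0.43, limma adjusted p = 1). Ndst2, a heparan sulfate sulfotransferase, read -2.07, -0.84, 0.15 and -0.51. Sulf2, which trims sulfate from heparan chains, read -1.18, -0.88, -0.36 and 0.46, and its other probe gave 0.97.

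By list, 20 signalling genes had a median of 0.10 with 12 positive, 12 further feedback and target genes a median of 0.03 with 6 positive, and 18 heparan sulfate genes a median of -0.21 with 6 positive. Dusp6, the phosphatase that FGF signalling induces against ERK, read 2.20, 2.02, 2.34 and 2.81, a difference of 0.46 with both Meis1-CKO pools above both controls. Egr1, an immediate-early target, differed by -0.02. Etv1, the third ETS factor of the pathway, read -1.37, -1.64, -1.68 and -2.77, a difference of -0.72 in which control 2 and Meis1-CKO 1 were nearly equal. None of these 3, which were chosen after their values were seen, passed the test.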

How the data were processed

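The authors' deposited scanner files hold spot intensity values (the processed signal of Agilent Feature Extraction 9.5.3.1, from which the software had subtracted the background, per the file headers). The deposited value table holds log2 values: they matched the scaled scanner signals (slope 1, correlation 1, over differences between arrays) after centring of each row on a median of 0, and the column medians were 0.04, 0.09, -0.06 and -0.12.

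From the scanner files, the log2 signal minus the 75th percentile of each array's non-control spots was taken. Control spots (1639) and 63 to 78 outlier spots per array were dropped, and spots of a probe were averaged. A probe entered the test if either group had it well above background on both of its arrays (24265 probes), and the brightest stood for its gene. An at-least fold sets the mean of the detected group against the lowest detected signal of each dim array, or the dim value itself where higher. Symbols came from the files, updated through RefSeq accessions for 26690 probes, older symbols for 952 and same symbols for 5189, and 8343 probes had none. Probe positions are those of the files on mm9, and exon or UTR annotation of that build was not used here.

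Groups were compared with limma 3.58.1 (lmFit, eBayes; R 4.3.3) without a block, with Benjamini-Hochberg adjustment over all 16764 features at 0.05. It had been checked on simulated data. Precision is limited by the 4 arrays, which leave 2 residual degrees of freedom (5.54 with moderation). Same-numbered arrays share a slide and scan. Their deviations correlated at 0.13 across features, and the labels tie no number to a shared day, so the block is an alternative. Other alternatives are given in the closing section.

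The members and lists were chosen with earlier results of these data known. Values on every array are given for genes whose arrays are apart or that differ at least 2-fold, and for 18 receptors, ligands and feedback genes whatever their values. Of other pathway genes, those with arrays apart and a 2-fold difference are named, and Dusp6, Egr1 and Etv1 were chosen after their values were seen. The values of Fgf6, Fgf8, Fgf14, Fgf15, Fgf18, Fgf20, Fgfbp1, Frs3 and Aire were likewise added.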

Additional observations from a re-analysis of the deposited data

How the results depend on the processing

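Leaving out 1 array at a time moved the number of features called from 0 to 314, that of FGF pathway members called from 0 to 1 and the median of the tested members from -0.79 to 0.019, with the high counts and the low median without Meis1-CKO 1. The number of members whose groups did not overlap, 5 as reported, was 8 after quantile normalization between arrays (34.8%, against 26.3% of features; with Fgfr1, Frs2 and Fgf9), 8 with the median of each array as the centre (34.8% against 25.1%; with Frs2, Fgf9 and Spry2) and 12 of 39 with no filter on dim probes (30.8% against 36.0%). With 3 arrays, where no overlap is easier to reach, it was 11 to 16, from 11 (47.8% against 60.3%) without Meis1-CKO 2 to 16 (69.6% against 56.4%) without control 1. All 8 settings that kept the 4 arrays retained Fgfbp3 as higher and Fgf1, Fgf5, Fgf12 and Fgf21 as lower, with 1 exception. Fgf12 was not tested where all 4 arrays had to be above background. The direction was kept, but the size was not. Under normexp background correction the differences were -0.49 for Fgf1, -0.77 for Fgf5, -0.71 for Fgf12 and 0.79 for Fgfbp3. Of these 5 genes, only Fgf21 (-1.34) then still differed at least 2-fold. With normexp background correction the difference reversed for Etv4 (-0.082), Fgf11 (-0.11), Fgf15 (-0.0091) and Fgfr3 (-0.050); the cause was not tested. On leaving out an array, 12 members changed sign, with ranges of -0.41 to 0.50 for Etv4, -0.21 to 0.33 for Fgf11, -2.04 to 0.89 for Fgf14, -0.79 to 1.13 for Fgf15, -0.20 to 0.13 for Fgf8, -0.79 to 0.43 for Fgfbp1, -1.11 to 0.70 for Fgfr2, -0.11 to 0.37 for Fgfr3, -0.20 to 0.45 for Frs3, -0.23 to 0.83 for Spred1, -0.41 to 0.21 for Spred2 and -1.20 to 0.24 for Spry1. In all, 11 members kept their sign in every setting run. With the slide as a replicate block, limma called 0 features, 660 had an unadjusted p under 0.05, and no member's call changed (adjusted p of Fgf12 0.992). Outside the leave-outs the lowest adjusted p of a member was 0.455. Where a group is left with 1 array, that array is assumed to vary like the other group. Signal near background limits the ligands most, since 10 of 14 paracrine ligands could not be tested.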
